A study of Mus musculus with 7 samples.

Results

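The high-affinity IgE receptor and the signalling proteins nearest to it were followed through 10 listed genes in RNA sequencing of EML cells. The genes were chosen by symbol, 3 receptor chains (Fcer1a, Ms4a2 and Fcer1g), 3 kinases (Syk, Lyn and Btk), 2 adapters (Lat and Lat2) and 2 phospholipases (Plcg1 and Plcg2). Of these, 9 were read from the deposited table of 20464 rows and 8 had enough signal to be tested among 9259 genes. Syk is not analysed here, and Fcer1a was below the minimum of 1 FPKM in at least 3 libraries. EML is a mouse haematopoietic progenitor line that grows in stem cell factor and can give erythroid, myeloid and lymphoid cells. Live, Annexin V-negative cells were sorted by the surface marker CD34 into a CD34-negative group of 4 libraries and a CD34-positive group of 3. No treatment, time point or engineered allele separates the groups in the labels, which give the strain C57BL/6 for every library. The labels also give bone marrow as tissue, a postnatal age, and a genotype of the negative libraries spelled CD43. Since the source label names the line and the titles name CD34, those were followed. All libraries come from 1 line, and nothing says that the replicates were separate cultures, so the p-values measure only how these libraries spread, and that spread may be technical.

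Replicates 1, 2 and 3 of both groups carry the numbers 3, 2 and 4 in their descriptions, with CD34-positive replicate 1 written as 3a. CD34-negative replicate 4 carries 4a. The letters, whose meaning is not given, were left aside in matching numbers. Libraries of equal number were therefore also compared with each other, with CD34-positive replicate 3 set against both CD34-negative replicates 3 and 4. Values are FPKM, fragments scaled to transcript length and to the mapped fragments of the library, which are levels per length and can be compared between genes. How many fragments lie behind them is unknown. Each library had 8606 to 9117 genes at 1 FPKM or more. The share of all FPKM that belonged to ribosomal protein genes was 27.7% to 37.1% in replicates 1 and 2 of either group but 2.25% to 4.15% in the 3 libraries numbered 4 and 4a, so these 3 stand apart across the groups. Cd34 itself was at 91.8, 19.3, 2.67 and 6.02 FPKM in CD34-negative replicates 1 to 4 and at 147, 256 and 153 FPKM in CD34-positive replicates 1 to 3. The negative library with the most Cd34, replicate 1, was nearest to the positive ones.

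The IgE receptor of mast cells and basophils is built from an alpha chain that binds IgE, a beta chain that amplifies the signal, and a pair of gamma chains that carry it. When antigen gathers receptors that hold IgE, the Src family kinase Lyn phosphorylates the tails of the beta and gamma chains, Syk docks there, and the adapters Lat and Lat2 collect Btk and phospholipase C gamma, which releases calcium and leads to degranulation. The gamma chain also serves other Fc receptors, and Lyn, Btk, Lat and the phospholipases act downstream of the B cell, T cell or platelet receptors too, so these genes differ widely in how closely they are tied to mast cells.

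The promoters of 4 members are shown because the results turn on them: the 3 receptor chains, whose levels lay far apart, and Plcg2, which with Ms4a2 was a member whose groups did not overlap. Each is the 250 bases before the RefSeq start of the gene in GRCm38.p6, 5′ to 3′ on the strand of the gene. 7 of the 10 members had an entry in that table. Ms4a2 lies at chr19:11623720-11623969, minus strand; Fcer1a at chr1:173227230-173227479, minus strand; Fcer1g at chr1:171234350-171234599, minus strand; and Plcg2 at chr8:117498025-117498274, plus strand. Capitals mark GATAA, the core letters bound by GATA factors, and GAGGAA, core letters bound by PU.1, each on either strand (TTATC and TTCCTC in reverse).
Ms4a2: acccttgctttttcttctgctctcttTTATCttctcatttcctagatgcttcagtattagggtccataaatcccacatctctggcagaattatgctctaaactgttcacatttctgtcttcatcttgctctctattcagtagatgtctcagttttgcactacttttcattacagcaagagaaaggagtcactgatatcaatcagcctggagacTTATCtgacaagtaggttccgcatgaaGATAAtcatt
Fcer1a: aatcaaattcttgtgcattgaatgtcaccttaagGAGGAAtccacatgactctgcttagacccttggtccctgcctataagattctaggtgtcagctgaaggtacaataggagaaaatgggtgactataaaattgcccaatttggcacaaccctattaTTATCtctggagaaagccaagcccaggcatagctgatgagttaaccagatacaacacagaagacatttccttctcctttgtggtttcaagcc
Fcer1g: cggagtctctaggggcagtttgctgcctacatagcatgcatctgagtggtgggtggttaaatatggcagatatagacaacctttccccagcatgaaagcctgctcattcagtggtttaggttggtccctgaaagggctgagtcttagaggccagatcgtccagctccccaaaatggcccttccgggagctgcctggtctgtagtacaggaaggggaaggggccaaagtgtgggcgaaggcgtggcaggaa
Plcg2: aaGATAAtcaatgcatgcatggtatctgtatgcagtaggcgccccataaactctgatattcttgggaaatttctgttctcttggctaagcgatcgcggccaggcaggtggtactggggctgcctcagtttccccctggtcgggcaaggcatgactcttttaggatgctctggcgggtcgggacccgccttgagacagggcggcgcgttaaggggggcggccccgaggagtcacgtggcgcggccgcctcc
The Ms4a2 window held GATAA letters 3 times, with first letters 224, 37 and 10 bases before the start. The Fcer1a window held GATAA 1 time and GAGGAA 1 time, the Plcg2 window held GATAA 1 time, and neither was in the Fcer1g window. Of 32851 windows of the same length, 22.6% held GATAA at least 1 time, 0.712% held it at least 3 times, and 23.3% held GAGGAA. The limit of 3 equals the count in the Ms4a2 window, the most among the 7 members with an entry. A match of letters is a description of the sequence and not a binding site.

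The beta chain Ms4a2 was the member that differed most, with lower values in every CD34-positive library. It was at 13.1, 17.8, 58.4 and 19.8 FPKM in CD34-negative replicates 1 to 4 and at 3.87, 1.86 and 0.642 FPKM in CD34-positive replicates 1 to 3. The groups did not overlap, and the lowest negative library, replicate 1, was still above the highest positive one, which carries the same number. The means were 27.3 ± 20.9 FPKM (n = 4, SD) and 2.12 ± 1.63 FPKM (n = 3, SD), a ratio of 12.8. Within equal numbers CD34-negative cells held 3.39 times as much Ms4a2 in replicate 1 and 9.60 times as much in replicate 2. CD34-positive replicate 3 was exceeded 91.0-fold by CD34-negative replicate 3 and 30.9-fold by CD34-negative replicate 4, which share that control. The order of these ratios follows the FPKM of the lone positive library of each number, from 3.87 down to 0.642.

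On the scale of log2(FPKM + 1) the Ms4a2 difference was -3.08 (SE 0.55, 95% interval -4.34 to -1.81) in limma. Its unadjusted p was 0.000435 and its Benjamini-Hochberg adjusted p over all tested genes was 0.464, so it did not pass 0.05, and no other member did. Of all tested genes 0% passed in either direction, and 5.65% had an unadjusted p under 0.05 (523 genes, or 2034 genes and 22% with the replicate block, a fit that compares libraries of equal number). With that block the difference was -3.05 (adjusted p = 0.0931). It passed with the block when CD34-negative replicate 1, CD34-positive replicate 1 or CD34-negative replicate 3 was left out (adjusted p = 0.0327, 0.0320 and 0.0436 in limma). In these fits 312, 311 and 157 of all 9259 tested genes passed, against 0 with all libraries. In only the 4 libraries numbered 2 and 3, without those of low ribosomal protein share, the Ms4a2 difference was -2.13 (adjusted p = 1.0 without the block). In bulk RNA, fewer cells that express a gene and less RNA per cell cannot be told apart.

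Fcer1g, the gamma chain, had the highest level of the members in both groups and did not follow the beta chain. It was at 554, 351, 909 and 330 FPKM in CD34-negative replicates 1 to 4 and at 463, 826 and 726 FPKM in CD34-positive replicates 1 to 3. The groups overlapped fully, since the highest and the lowest value were both in CD34-negative libraries, replicates 3 and 4. The difference was 0.41 (SE 0.69, 95% interval -1.16 to 1.97, adjusted p = 1.0 in limma), and its sign turned with quantile normalization (-0.04). Within equal numbers it was -0.26 in replicate 1, 1.23 in replicate 2, -0.32 in replicate 3 and 1.14 for CD34-negative replicate 4. The interval spans changes of either sign, so no direction can be given for Fcer1g.

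Fcer1a, the chain that binds IgE, was below 1 FPKM in every library but 1. It was listed at 0.262, 0.0675, 1.25 and 0.218 FPKM in CD34-negative replicates 1 to 4, and at 0 in CD34-positive replicates 1 and 2 and 0.0629 FPKM in replicate 3. The exception was CD34-negative replicate 3, which is also the library with the most Ms4a2. Values this low are given without a fold or a test, because the fragments behind them are unknown and an entry of 0 can be a failed estimate. In that same library Fcer1g was at 909 FPKM, so the alpha and gamma chains lay far apart in level.

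A ratio of 2 members inside a library does not depend on how that library was scaled. There were 23.7, 50.8, 64.2 and 60.1 FPKM of Ms4a2 per 1000 FPKM of Fcer1g in CD34-negative replicates 1 to 4, and 8.37, 2.25 and 0.884 in CD34-positive replicates 1 to 3. These ratios did not overlap between the groups. The highest positive ratio, in replicate 1, was nearest to the lowest negative one, also in replicate 1. These ratios and those of the adapters and phospholipases below were chosen after the values were seen, and carry no test.

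**Figure D1:**
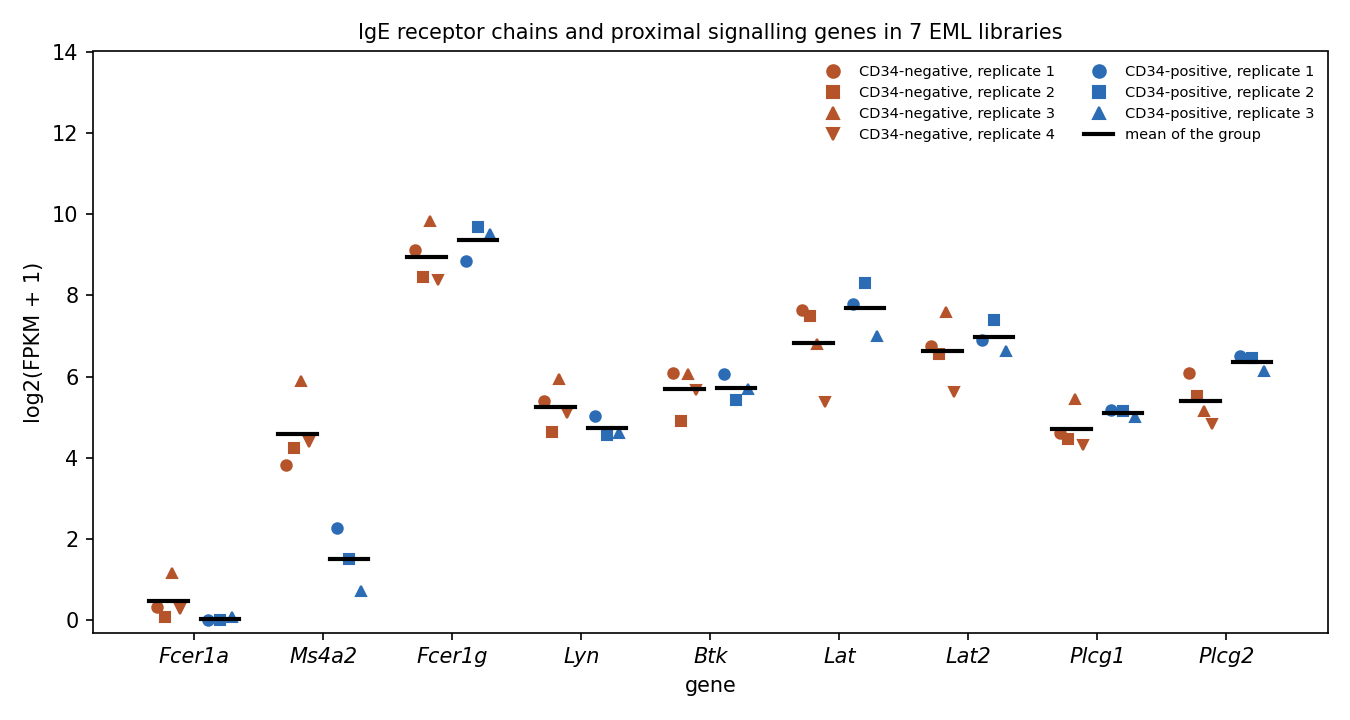
Level of each member as log2(FPKM + 1), with 1 point per library, marker shape for the replicate, brown for CD34-negative, blue for CD34-positive and a black bar for the mean of the group. Ms4a2 separates the groups downwards (0.642 to 3.87 FPKM in CD34-positive libraries, 13.1 to 58.4 in CD34-negative), Plcg2 upwards, and Fcer1a is the lowest member in every library.

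Lyn, the kinase that starts the signal, had slightly lower values in CD34-positive cells in each pair. It was at 40.9, 23.7, 60.2 and 33.4 FPKM in CD34-negative replicates 1 to 4 and at 31.9, 22.5 and 23.4 FPKM in CD34-positive replicates 1 to 3. The groups overlapped, because CD34-negative replicate 2 lay among the positive libraries. The difference was -0.53 (SE 0.37, 95% interval -1.38 to 0.32, adjusted p = 1.0 in limma), and within equal numbers it ran from -0.07 in replicate 2 to -1.33 in replicate 3. Lower values in all 4 comparisons of equal number were found for Lyn and Ms4a2 among the 8 tested members and for 18.9% of all tested genes.

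Btk, a Tec family kinase that activates phospholipase C gamma, was at nearly the same level in both groups. CD34-negative replicates 1 to 4 held 67.2, 29.2, 65.8 and 50.3 FPKM of Btk and CD34-positive replicates 1 to 3 held 66.0, 42.0 and 50.6 FPKM. The positive values lay within the range of the negative ones. The mean of Btk was 53.1 ± 17.7 FPKM (n = 4, SD) against 52.9 ± 12.2 FPKM (n = 3, SD), with a difference of 0.04 (95% interval -0.86 to 0.94) whose sign turned under 6 of 27 other settings.

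The adapter Lat gives docking sites for phospholipase C gamma. It was at 198, 178, 110 and 40.5 FPKM in CD34-negative replicates 1 to 4 and at 220, 314 and 127 FPKM in CD34-positive replicates 1 to 3. The 3 libraries numbered 4 and 4a were the lowest, in both groups, and within equal numbers CD34-positive cells held 1.11, 1.76, 1.16 and 3.14 times as much Lat. The group difference was 0.87 (SE 0.64, 95% interval -0.60 to 2.34, adjusted p = 1.0 in limma). Lat and Plcg2 were higher in all 4 comparisons of equal number, as were 21.4% of tested genes. Taking both directions, 4 of 8 members kept 1 sign through the 4 comparisons, as did 40.3% of tested genes.

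Lat2, a related adapter of mast cells, B cells and monocytes, was at 107, 93.5, 192 and 48.0 FPKM in CD34-negative replicates 1 to 4 and at 119, 167 and 97.5 FPKM in CD34-positive replicates 1 to 3. CD34-negative replicates 3 and 4 were its highest and lowest libraries although both were numbered 4, so the negative group spanned the positive one. The difference was 0.34 (SE 0.52, 95% interval -0.84 to 1.53, adjusted p = 1.0 in limma). Lat2 shares exon bases with Rfc2 on the other strand in GENCODE M21, and whether strand was used in counting is not given in the sources used here. The same holds for Lyn with Gm26857 and for Plcg1 with Gm27206. Lat stood at 1.84 and 1.91 times the FPKM of Lat2 in CD34-negative replicates 1 and 2, and at 0.575 and 0.845 times in replicates 3 and 4. In CD34-positive replicates 1 to 3 the same ratio was 1.85, 1.87 and 1.30. It was thus lowest in the libraries numbered 4 and 4a of both groups, but Lat was below Lat2 only in CD34-negative replicates 3 and 4.

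Plcg2, the phospholipase C gamma that dominates in B cells, mast cells and platelets, was the other member whose groups did not overlap. It was at 67.2, 44.9, 34.7 and 27.7 FPKM in CD34-negative replicates 1 to 4 and at 89.2, 87.4 and 69.3 FPKM in CD34-positive replicates 1 to 3. Every positive library was above every negative one, although CD34-negative replicate 1 at 67.2 and CD34-positive replicate 3 at 69.3 FPKM nearly met. The means were 82.0 ± 11 FPKM (n = 3, SD) against 43.6 ± 17.3 FPKM (n = 4, SD), a ratio of 1.88, and within equal numbers the ratio was 1.33, 1.94, 2.0 and 2.50. The difference was 0.96 (SE 0.38, 95% interval 0.09 to 1.84), with an unadjusted p of 0.0348 and an adjusted p of 0.799 in limma (0.0931 with the block). Without the block, the unadjusted p was above 0.05 when CD34-negative replicate 3 or 4 or CD34-positive replicate 1 or 2 was left out, with 0.10 as the highest, and it was 0.0818 in the libraries numbered 2 and 3 alone. With the block it lay between 0.0019 and 0.0324 when any 1 library was left out and was 0.0252 in those numbered 2 and 3.

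Plcg1, its relative that dominates in T cells, was at 23.6, 21.1, 42.6 and 18.8 FPKM in CD34-negative replicates 1 to 4 and at 35.4, 34.5 and 31.2 FPKM in CD34-positive replicates 1 to 3. CD34-negative replicate 3 alone exceeded the positive libraries, so the groups overlapped. The difference was 0.40 (SE 0.35, 95% interval -0.39 to 1.19, adjusted p = 1.0 in limma). Plcg2 stood at 2.84, 2.13, 0.814 and 1.47 times the FPKM of Plcg1 in CD34-negative replicates 1 to 4 and at 2.52, 2.54 and 2.22 times in CD34-positive replicates 1 to 3. These ratios overlapped, and CD34-negative replicate 3 was the only library with more Plcg1 than Plcg2.

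**Figure D2:**
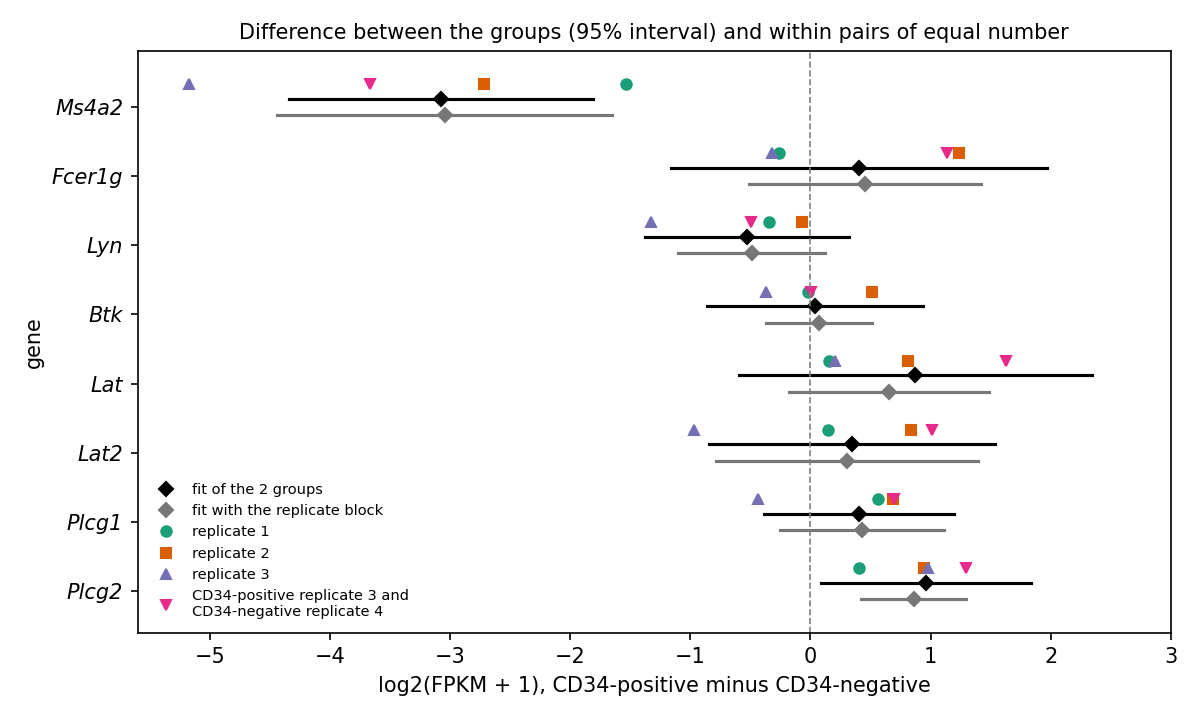
Difference of each tested member in log2(FPKM + 1), CD34-positive minus CD34-negative. Black and grey diamonds with lines are limma estimates with 95% intervals without and with the replicate block, and coloured points are the differences between libraries of equal number. The interval leaves out 0 for Ms4a2 (-4.34 to -1.81) and Plcg2 (0.09 to 1.84) and spans 0 for the other 6 members.

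Ms4a2 and Plcg2 thus made 2 of 8 tested members whose groups did not overlap, 1 in each direction, where 5.68% of all tested genes did not overlap. The same 2 members were those at an unadjusted p under 0.05, also with the replicate block. Of all tested genes 5.65% were under that limit, and 22% with the block, so with the block 2 of 8 is close to the share of all genes. The median difference of the 8 members was 0.37, against 0.09 over all tested genes.

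By mean level, the order of the members in CD34-negative cells was Fcer1g, Lat, Lat2, Btk, Plcg2, Lyn, Ms4a2, Plcg1 and Fcer1a. Their ranges overlapped between all neighbours from Lat to Plcg1, so by range only Fcer1g at the top and Fcer1a at the bottom were set apart. In CD34-positive cells the order was Fcer1g, Lat, Lat2, Plcg2, Btk, Plcg1, Lyn, Ms4a2 and Fcer1a, and overlaps remained only between Lat and Lat2 and between Plcg1 and Lyn. In CD34-negative cells only the mean of Ms4a2 lay within the ranges of Plcg1 and Lyn, and Lyn was above Ms4a2 in all 4 libraries. In CD34-positive cells Ms4a2 was below every other member but Fcer1a. CD34-negative replicate 3 was the highest negative library for 6 of 9 members, and CD34-negative replicate 1 for the other 3 (Btk, Lat and Plcg2).

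**Figure D3:**
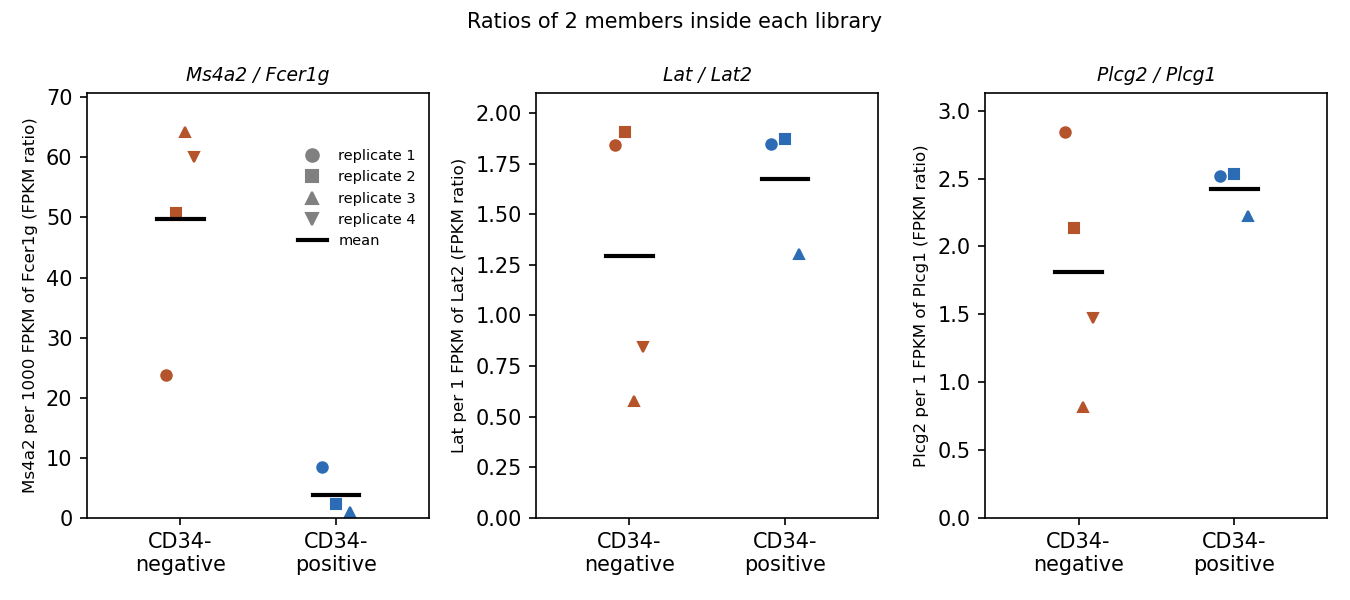
FPKM ratio of 2 members inside each library, with 1 point per library, marker shape for the replicate, a black bar for the mean and each axis from 0. Ms4a2 per 1000 FPKM of Fcer1g does not overlap between the groups (23.7 to 64.2 against 0.884 to 8.37), while the ratios of Lat to Lat2 and of Plcg2 to Plcg1 overlap and are lowest in CD34-negative replicate 3.

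The genes whose level was most like that of a receptor chain over the 7 libraries are given by Pearson's r of log2(FPKM + 1), as a description. Libraries of a group and libraries numbered 4 share features that also enter these values. For Ms4a2 they were Gata2, a transcription factor of progenitors and mast cells (r = 0.99), the mast cell protease Mcpt2 (0.99) and Fam178b (0.99). Gata2 was at 242, 260, 415 and 264 FPKM in CD34-negative replicates 1 to 4 and at 120, 80.0 and 56.8 FPKM in CD34-positive replicates 1 to 3. Like Ms4a2, it was lowest in CD34-positive replicate 3 and highest in CD34-negative replicate 3. For Fcer1a they were Ids (0.99), the histamine receptor Hrh4 (0.99) and the platelet glycoprotein Gp1ba (0.99), which share its peak in CD34-negative replicate 3. Fcer1a was at 0.262 FPKM or less in every other library, so these r rest mainly on that peak. For Fcer1g the genes were the cytokine signalling inhibitor Socs1 (0.97), Ankrd13d (0.96) and Abcb1b (0.95), which lay between 0.252 and 4.57 FPKM.

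Some markers of mast cells went with Ms4a2 and others did not. The 12 listed mast cell markers, all in the table and none at 0 in every library, summed to 4393 to 19090 FPKM in CD34-negative and 2823 to 3638 FPKM in CD34-positive libraries. Among them the proteases Cma1, Mcpt1, Mcpt2 and Mcpt4 and the histamine enzyme Hdc had groups that did not overlap, all lower in CD34-positive cells. These were 5 of 11 tested, where 3.01% of all tested genes were lower without overlap. The other 6 overlapped (Tpsab1, Tpsb2, Kit, Cpa3, Mitf and Slc18a2). Cpa3, the mast cell carboxypeptidase, had the higher mean in CD34-positive cells, 2400 ± 575 FPKM (n = 3, SD) against 1466 ± 1232 FPKM (n = 4, SD), and the difference of Kit was 0.01. Ms4a2 stood at 1.19 to 2.17 FPKM per 100 FPKM of Cma1 in CD34-negative and 0.437 to 2.51 in CD34-positive libraries, which overlapped. The 7 erythroid markers went with it too, at 108 to 657 FPKM summed in CD34-negative and 7.92 to 56.0 FPKM in CD34-positive libraries. The 7 stem and progenitor markers summed to 81.2 to 536 FPKM in CD34-negative and 624 to 687 FPKM in CD34-positive libraries. In CD34-negative replicate 3 nearly all of that sum was Kit, at 522 FPKM. Of 6 tested, Ly6a, Tcf7 and Cd34, the marker of the sort itself, were higher without overlap like Plcg2, and Kit, Hlf and Meis1 overlapped. Of all tested genes 2.67% were higher without overlap. The part of these cell programmes in the values of Ms4a2 and Plcg2 was not tested.

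Among markers of other cells, those of B, T and NK cells and most of macrophages and eosinophils were near the floor. The sums for platelets, basophils and neutrophils were not. All 8 B cell markers summed to 0.396 to 1.83 FPKM in CD34-negative and 1.13 to 2.28 FPKM in CD34-positive libraries, with Pax5, Ms4a1 and Ebf1 listed at 0. The 7 T and NK cell markers in the table summed to 0.736 to 1.55 and 0.357 to 1.12 FPKM, with Cd3e, Cd8a and Ncr1 listed at 0. The 6 macrophage markers summed to 3.51 to 12.5 and 8.69 to 12.3 FPKM, nearly all of it Cd68, with C1qa listed at 0, and the 5 eosinophil markers to 0.234 to 2.53 and 2.23 to 7.15 FPKM, with Ear1 listed at 0. The 7 platelet and megakaryocyte markers reached 269 to 910 and 247 to 774 FPKM, with Gp6 listed at 0, the 6 basophil markers 54.8 to 771 and 63.9 to 96.1 FPKM, and the 7 neutrophil markers 124 to 1308 and 1234 to 2354 FPKM, with Camp and S100a8 listed at 0. The 3 tested neutrophil markers were higher in CD34-positive cells in all 4 comparisons of equal number, as were 21.4% of all tested genes. Nearly all of the neutrophil sum was Mpo and Ctsg, with Elane and Ltf below 1 FPKM in every library. Mcpt8 was the largest part of the basophil sum in every library, with Prss34 and Itga2 below 1 FPKM throughout. Btk, Lat and Plcg2 were at 27.7 to 314 FPKM in these same libraries, beside hardly any B or T cell marker RNA. Platelet marker RNA, Mcpt8, Mpo and Ctsg were present there.

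Around the members, 141 other genes of the pathway were listed in 7 groups by role, and 107 of them were tested. None passed an adjusted p of 0.05 in limma, with or without the block. At an unadjusted p under 0.05 CD34-positive cells had 8 genes higher and 2 lower, where the shares over all tested genes were 3.38% higher and 2.27% lower. With the block there were 21 higher and 7 lower, where the shares were 12.8% and 9.14%. Groups did not overlap for 9 higher and 3 lower genes, against 2.67% and 3.01% of all tested genes.

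Of the Fc receptors and partner chains, 7 of 13 were tested, with a median difference of 0.80. Fcgr2b, the inhibitory IgG receptor that opposes the IgE receptor, was at 32.9, 11.8, 27.3 and 10.02 FPKM in CD34-negative replicates 1 to 4 and at 46.4, 59.3 and 47.2 FPKM in CD34-positive replicates 1 to 3. The groups did not overlap, and the difference was 1.43 (SE 0.45, adjusted p = 0.662 in limma). Per 1000 FPKM of Fcer1g there were 30.1 to 59.4 FPKM of Fcgr2b in CD34-negative and 65.1 to 100.3 in CD34-positive libraries, the reverse of what Ms4a2 showed. Clec4e, a lectin receptor that signals through the gamma chain, averaged 116 ± 19.0 FPKM (n = 3, SD) in CD34-positive and 45.1 ± 28.1 FPKM (n = 4, SD) in CD34-negative cells, again without overlap. Fcgr3, an activating IgG receptor that needs the gamma chain, was at 99.1 to 183 FPKM in CD34-negative and 149 to 187 FPKM in CD34-positive libraries, which overlapped. Fcgrt, the neonatal Fc receptor, averaged 1.55 against 0.469 FPKM and overlapped.

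The tested kinases beside the members had groups that overlapped. Of 13 in the list only Fyn, Tec and Kit were tested, so most Src and Tec family members were below the minimum. Fyn, a Src family kinase that acts beside Lyn, averaged 25.6 ± 6.34 FPKM (n = 3, SD) in CD34-positive and 25.3 ± 5.26 FPKM (n = 4, SD) in CD34-negative cells. Tec, a relative of Btk, averaged 42.8 against 33.5 FPKM. Kit, the stem cell factor receptor that enhances the IgE signal, averaged 222 against 266 FPKM with groups that overlapped. The median difference of the 3 was 0.01.

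Of 22 adapters and exchange factors 19 were tested, with a median difference of 0.12, and 4 had an unadjusted p under 0.05, all higher in CD34-positive cells (6 with the block). Over all tested genes the share that was higher at this limit was 3.38% (12.8% with the block). Clnk, an adapter of the family of Lcp2 found in mast cells, was at 8.80, 2.61, 12.1 and 3.54 FPKM in CD34-negative replicates 1 to 4 and at 17.1, 22.3 and 22.0 FPKM in CD34-positive replicates 1 to 3. The groups did not overlap, and the difference was 1.66 (SE 0.47, adjusted p = 0.647 in limma). Vav3, an exchange factor for Rac, averaged 4.10 ± 0.90 FPKM (n = 3, SD) against 0.988 ± 1.13 FPKM (n = 4, SD), and Rasgrp4, an activator of Ras known from mast cells, averaged 10.2 against 4.94 FPKM. Neither overlapped, and neither passed (adjusted p = 0.647 and 0.713 in limma). Lcp2 itself, which links Lat to phospholipase C gamma, averaged 31.3 ± 8.68 FPKM (n = 3, SD) against 36.6 ± 19.5 FPKM (n = 4, SD).

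Among 33 genes of PI3 kinase, calcium entry and protein kinase C, 30 were tested and none had an unadjusted p under 0.05 (4 higher and 3 lower with the block). With the block the shares over all tested genes were 12.8% higher and 9.14% lower. The median difference of the 30 was 0.11. The catalytic subunits Pik3cd and Pik3cg had means of 77.1 and 25.3 FPKM on the positive side and 44.8 and 15.2 FPKM on the negative side. The transcription factor Nfatc2 averaged 1.84 against 3.85 FPKM. All 3 overlapped between the groups.

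Inhibitors of the receptor lay on both sides. Of 27, 23 were tested, with a median difference of 0.35, and at an unadjusted p under 0.05 there was 1 higher and 1 lower (6 and 2 with the block). The shares over all tested genes were 3.38% higher and 2.27% lower (12.8% and 9.14% with the block). Pag1, a membrane adapter that brings Csk to Src family kinases, was at 5.53, 0.432, 0.969 and 1.31 FPKM in CD34-negative replicates 1 to 4 and at 10.6, 4.55 and 10.6 FPKM in CD34-positive replicates 1 to 3. Only CD34-negative replicate 1 reached into the positive range, and the difference was 1.83 (SE 0.54, adjusted p = 0.647 in limma). Rabgef1, which restrains mast cell activation, averaged 12.5 ± 4.31 FPKM (n = 3, SD) in CD34-positive and 23.6 ± 3.89 FPKM (n = 4, SD) in CD34-negative cells without overlap (adjusted p = 0.686 in limma). Ptpn22, a phosphatase, averaged 7.95 against 4.45 FPKM. The lipid phosphatase Inpp5d, also called SHIP1, averaged 84.4 ± 11.7 FPKM (n = 3, SD) against 87.4 ± 30.5 FPKM (n = 4, SD), with a difference of 0.00 (SE 0.39).

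Further downstream, 14 of 19 genes of the degranulation machinery were tested, with a median difference of 0.04. Vamp2, a vesicle protein of membrane fusion, was at 7.57 to 18.4 FPKM in CD34-negative and 5.86 to 15.1 FPKM in CD34-positive libraries. Rab27b, a small GTPase of granule release, was at 4.30 to 54.0 and 5.85 to 12.2 FPKM. Both overlapped between the groups. Of 14 genes for lipid mediators and cytokines 11 were tested, with a median difference of 0.24. Pla2g4a, the phospholipase that frees arachidonic acid, averaged 35.3 ± 5.35 FPKM (n = 3, SD) against 16.5 ± 7.42 FPKM (n = 4, SD), and Ptgs1, which makes prostaglandins from it, averaged 2.69 against 4.74 FPKM. Both had groups that did not overlap, in opposite directions, and neither passed (adjusted p = 0.698 and 0.941 in limma). Il13 overlapped and averaged 1.45 against 15.6 FPKM, a mean set by CD34-negative replicate 3 at 53.7 FPKM.

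**Figure D4:**
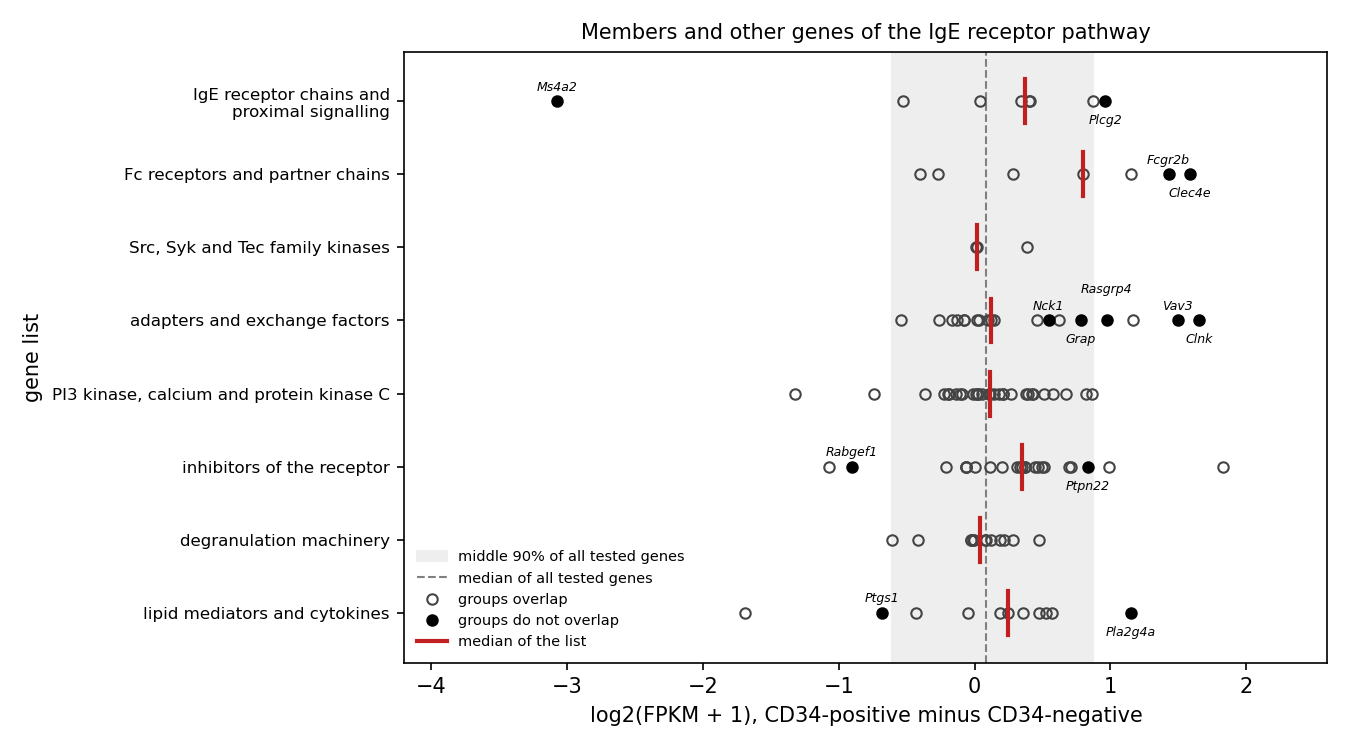
Difference in log2(FPKM + 1), CD34-positive minus CD34-negative, of the tested genes in the members and 7 lists (1 gene not shown), filled and named where the groups do not overlap, with the list median in red. The grey band holds the middle 90% of all tested genes and the dashed line their median of 0.09, and Ms4a2 at -3.08 lies farthest from that line.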

How the data were processed

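RNA from EML cells sorted by CD34 was sequenced in 7 libraries. The authors deposited FPKM per gene symbol in 1 table. Cuffdiff, TopHat and TopHat2 appear in the submitters' processing notes without versions, beside both mm9 and mm10. The sources used here do not give the annotation or the strand setting, so overlapping genes are uncertain. Libraries were grouped by their titles.

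105 symbols listed more than once (322 rows) were left out. The test covered genes that reached 1 FPKM in 3 or more libraries, as log2(FPKM + 1), a scale that understates changes of low genes, with limma 3.58.1 in R 4.3.3 (trend, two-sided, Benjamini-Hochberg over 9259 genes, threshold 0.05). The script was tested on simulated data. The description numbers were taken to pair the libraries, since deviations from group means correlated at 0.70 to 0.92 between groups at equal number and at -0.86 to 0.37 otherwise. For the number 4 libraries this cannot be told apart from their kind. Deviations within a group balance each other, so the method itself lowers the correlations at unequal number. The same values enter the fit with the block.

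Besides the members, the text names Cd34, the 3 genes of smallest p in each list, and the 3 most correlated with each receptor chain. Fcgr3, Lcp2, Inpp5d and the markers were named after their values were seen. The members and lists were chosen with earlier results of these data known. Alternatives changed pseudocount, filter, scaling, pairing and libraries. Promoters come from RefSeq, GRCm38.p6, and were compared with Python 3.11.15. Of the listed genes, 1 pathway gene and 1 marker are counted in their lists but not reported here.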

Additional observations from a re-analysis of the deposited data

Results flagged for a closer look

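The 9 members in the table, Cd34, the pathway genes named by p and the genes most like a receptor chain came to 40 genes. In 4 of them 1 CD34-negative library stood apart from its group on log2(FPKM + 1), past Dixon's 95% critical value for 4 samples. The measure divides the distance of that library from its neighbour by the range of all 4. Chance gives about 1 such group in 20, and 5.95% of all tested genes were past the same limit.

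For Ptpn22, a phosphatase that restrains antigen receptor signals, the measure was 0.86, with CD34-negative replicate 2 low at 1.15 FPKM. In the other 3 genes CD34-negative replicate 3 was high. The cytokine Il13 had a measure of 0.876 at 53.7 FPKM in that library, the platelet glycoprotein Gp1ba 0.839 at 32.4 FPKM, and the transcription factor Gata2 0.837 at 415 FPKM. Gp1ba and Gata2 were named for their likeness to Fcer1a and Ms4a2, both of which are highest in that library. None of the 9 members was past the limit.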

How the results depend on the processing

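Over 27 other settings the direction held for Ms4a2 (-3.72 to -2.13), Plcg2 (0.67 to 1.19), Lat (0.39 to 1.22), Lyn (-0.74 to -0.21) and Plcg1 (0.27 to 0.65). Lat2 kept its sign too (0.005 to 0.66), but at 0.005, without CD34-negative replicate 4, it gave hardly any direction. The direction turned for Fcer1g with quantile normalization (-0.044). It turned for Btk with quantile normalization (-0.12), with median-ratio scaling (-0.064), without CD34-negative replicate 2 (-0.22, or -0.12 with the replicate block), without CD34-positive replicate 1 (-0.13), and without CD34-positive replicate 2 with the block (-0.12). Leaving out 1 library gave Btk -0.22 to 0.19 without a block and -0.12 to 0.24 with it; the cause was not tested.

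Without a block, 0 genes passed an adjusted p of 0.05 in limma except without CD34-negative replicate 1, which gave 10, so leaving out 1 library gave 0 to 10 genes. With the replicate block over all libraries 0 passed. With the block and 1 library left out, 0 to 312 genes passed: 312 without CD34-negative replicate 1, 311 without CD34-positive replicate 1, 157 without CD34-negative replicate 3, 1 without CD34-positive replicate 3 and 0 without the others. With the block, 314 passed without both replicate 1 libraries and 17 when CD34-negative replicates 3 and 4 were averaged into 1 sample. The cause was not tested. Ms4a2 was the 1 member that passed with the block without both replicate 1 libraries, and leaving out 1 library gave 0 to 1 member (1 without CD34-negative replicate 1 or 3 or CD34-positive replicate 1). Among pathway genes 4 passed with the block without both replicate 1 libraries (Skap2, Vav3, Pag1 and Pla2g4a), and 0 to 4 when 1 library was left out (4 without either replicate 1 library, 2 without CD34-negative replicate 3).

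At an unadjusted p under 0.05, where 2 members stood, leaving out 1 library gave 1 or 2 members without a block and 2 to 6 with it, the highest without CD34-negative replicate 3. In that fit 1514 of all 9259 tested genes were higher and 1106 lower at the same limit. Without CD34-negative replicate 2, with the block, there were 2 members beside 484 genes higher and 403 lower. The member counts thus moved along with those of all genes. Averaging CD34-negative replicates 3 and 4 gave 1 member (4 with the block, with Lat and Plcg1), and only the libraries numbered 2 and 3 gave 1. Over all tested genes averaging gave 203 higher and 205 lower (1434 and 1086 with the block). Only the libraries numbered 2 and 3 gave 39 higher and 144 lower. The fit with the block in those libraries was chosen after seeing the data. With no filter on low values Fcer1a was tested too. A block by title number changed no call. With FPKM alone the counting error is unknown, which limits Fcer1a most.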

Other observations

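Some genes of mast cell mediators, of their synthesis and of signalling had their highest values in CD34-negative replicate 3 as well. Il6 was at 69.5, 15.6, 205 and 47.1 FPKM in CD34-negative replicates 1 to 4 and at 81.9, 46.9 and 133 FPKM in CD34-positive replicates 1 to 3. Tnf was at 53.4 FPKM in CD34-negative replicate 3 and at 37.7 FPKM in CD34-positive replicate 3, the second highest library, which carries the same number. Hpgds, a prostaglandin D2 synthase, was at 56.8 FPKM in CD34-negative replicate 3 and between 1.51 and 10.7 FPKM in the other libraries. Prkcb, a protein kinase C isoform, was at 25.5 FPKM there and between 0.267 and 1.22 FPKM elsewhere.

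Il4 went with the kind of library. Replicates 1 and 2 held 12.8 and 9.03 FPKM of it among CD34-negative cells and 9.26 and 10.05 FPKM among CD34-positive cells. In the 3 libraries numbered 4 and 4a it was at 1.47 FPKM, listed at 0, and at 0.167 FPKM. These genes were chosen after their values were seen.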
